A study of Homo sapiens with 9 samples.

Results

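The genes described here encode the enzymes and factors that act on the C-terminal domain (CTD) of RPB1, the largest subunit of RNA polymerase II, or that travel with the polymerase while it elongates. They are 41 of the 36601 genes in the deposited matrices and were taken by symbol: CTD kinases and their cyclins (CDK7, CCNH and MNAT1 of TFIIH; CDK9, CCNT1 and CCNT2 of P-TEFb; CDK12, CDK13 and CCNK), CTD phosphatases (CTDP1, SSU72, CTDSP1, CTDSP2, CTDSPL and RPAP2), 7SK particle proteins (HEXIM1 and LARP7), the pausing factors NELF and DSIF with SPT6 (NELFA, NELFB, NELFCD, NELFE, SUPT4H1, SUPT5H and SUPT6H), the super elongation complex (ELL, ELL2, AFF1 and AFF4), the PAF1 complex (PAF1, CTR9, LEO1, CDC73 and RTF1), FACT (SUPT16H and SSRP1), TFIIS (TCEA1), and the CTD-binding proteins PCIF1, RPRD1A, RPRD1B, SCAF4 and SCAF8. All 41 symbols matched a row, and all 41 passed the filter on low counts.

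The CTD is a tail of repeated heptapeptides whose serines are phosphorylated in sequence. TFIIH marks the CTD as transcription starts, DSIF and NELF hold the young polymerase near the promoter, and P-TEFb, kept inactive in the 7SK particle until needed, phosphorylates the CTD and the pausing factors and lets the polymerase go. The super elongation complex, the PAF1 complex, SPT6, FACT and TFIIS then assist the polymerase through chromatin, and CTD phosphatases remove the marks so that the enzyme can be used again.

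Transcripts of single U2OS cells were captured by their 3′ ends, and each captured molecule was counted once through its unique molecular identifier (UMI). U2OS is a human osteosarcoma line, given in the labels as epithelial. In the HaloTag 25R, 52R and 70R and the Dendra2 25R, 52R and 70R cells, RPB1 bore HaloTag (a self-labelling enzyme) or Dendra2 (a photoconvertible fluorescent protein) and a CTD of 25, 52 or 70 repeats, 52 being the human wild-type number. Cells of all 6 genotypes had been kept in α-amanitin, a polymerase II inhibitor, at 1 µg/ml during 6 days. Each genotype is 1 library, and the labels describe no separate cultures, so p-values measure only the spread between these libraries. In the gene fits between tags and between CTD lengths, that spread is how far a CTD difference varied with the tag. Those fits take a CTD difference as equal in both tags. The HaloTag libraries were each sequenced in 2 runs and the Dendra2 libraries in 1, so tag and sequencing cannot be told apart.

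The libraries held 2718 to 4677 cells and 52553686 to 58442223 UMIs after filtering. The median UMI count per cell was 13466 ± 2605 in HaloTag and 17588 ± 1593 in Dendra2 libraries (SD, n = 3 each; two-sided exact permutation p = 0.2, adjusted over 7 such measures 0.233). The mitochondrial share of UMIs was 8.46% ± 1.25 in HaloTag and 5.91% ± 0.33 in Dendra2 libraries, and the share of cells called S phase was 30.6% ± 1.22 in HaloTag and 37.0% ± 3.40 in Dendra2 libraries (n = 3 each; exact p = 0.1 for each, the smallest that 3 against 3 libraries allow, adjusted 0.175). Mesenchymal and osteoblast markers summed to 3048 to 4140 CPM over the libraries, of which VIM alone gave 2495 to 3735 and SPARC 129.9 to 248, while COL1A2 and TWIST1 of the same list reached at most 0.198 and 0.036 CPM. Epithelial markers summed to 15.2 to 65.6 CPM and leukocyte markers to 0.703 to 2.77. Of the epithelial markers, KRT14 stood at 2.19 to 38.9 CPM, KRT7 at 7.40 to 15.6, CLDN4 at 0.719 to 8.79 and EPCAM at 0.216 to 7.85. CDH1 stood at 0.106 to 0.422 CPM, and KRT5, KRT19, CLDN7 and ESRP1 reached at most 0.547 CPM. GRHL2 had no UMI in any library, as had NKG7 of the leukocyte markers. The epithelial markers were thus present in part and at low levels, and whether the label fits the cells was not tested. Any pair of libraries shared at most 7 cell barcodes.

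Levels are given as CPM, the UMIs of a gene summed over the cells of a library and scaled to the library's total with trimmed-mean factors (TMM). A 3′ library yields about 1 count per captured transcript whatever its length, so no division by length was made, and levels of different genes still depend on how well each 3′ end is captured. TCEA1, the TFIIS gene that helps a backtracked polymerase to cleave its transcript, was the most abundant of the 41 with a mean of 218 CPM over the 6 libraries. It stood at 244, 183 and 188 CPM in the HaloTag 25R, 52R and 70R libraries, against 233, 221 and 242 CPM in the Dendra2 25R, 52R and 70R libraries. The ranges of the tags overlapped, since HaloTag 25R held the highest value of all 6 and the other 2 HaloTag libraries the lowest.

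Both subunits of FACT, the histone chaperone that loosens and rebuilds nucleosomes around the moving polymerase, came next. SSRP1 (ENSG00000149136, chromosome 11, 57325986 to 57335892 on the reverse strand of GRCh38) stood at 176, 169.6 and 164 CPM in the HaloTag 25R, 52R and 70R libraries, against 189, 183 and 186 CPM in the Dendra2 25R, 52R and 70R libraries. SUPT16H (ENSG00000092201, chromosome 14, 21351476 to 21384019 on the reverse strand) stood at 141, 154 and 138 CPM in the HaloTag 25R, 52R and 70R libraries, against 211, 222 and 136 CPM in the Dendra2 25R, 52R and 70R libraries. SSRP1 was the steadier of the pair, with a coefficient of variation of 5.48% over the 6 libraries against 23.3% for SUPT16H, whose 25R and 52R Dendra2 libraries lay above the other 4.

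The next in level were NELFE, the RNA-binding subunit of NELF, and RTF1, a PAF1-complex component that stimulates ubiquitylation of histone H2B. NELFE stood at 157, 150.1 and 182 CPM in the 25R, 52R and 70R libraries with HaloTag and 159.7, 138 and 144 CPM in those with Dendra2. RTF1 stood at 83.4, 127 and 117 CPM in the 25R, 52R and 70R libraries with HaloTag and 134, 178 and 117 CPM in those with Dendra2, with HaloTag 25R lowest and Dendra2 52R highest. The lowest of the 41 were ELL, CTDP1 and NELFA, with means of 6.202, 8.25 and 15.3 CPM. ELL, which raises the elongation rate of the polymerase, stood at 6.94, 5.47 and 6.24 CPM in the 25R, 52R and 70R libraries with HaloTag and 6.55, 4.24 and 7.77 CPM in those with Dendra2, and CTDP1, the FCP1 phosphatase, at 8.498, 7.799 and 7.302 CPM in the 25R, 52R and 70R libraries with HaloTag and 8.96, 8.54 and 8.38 CPM in those with Dendra2. NELFA, a subunit of NELF, stood at 15.8, 13.3 and 14.7 CPM in the 25R, 52R and 70R libraries with HaloTag and 17.5, 14.8 and 15.7 CPM in those with Dendra2.

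Partners of 1 complex did not share 1 level. Within NELF, mean levels ran from 15.3 CPM for NELFA over 32.3 for NELFB and 72.3 for NELFCD to 155 CPM for NELFE. Within the PAF1 complex, RTF1 averaged 126 CPM, while CTR9, PAF1, LEO1 and CDC73 averaged 44.7, 35.4, 33.5 and 26.3 CPM. The TFIIH assembly factor MNAT1 averaged 84.8 CPM, its cyclin partner CCNH 40.2 CPM and the kinase CDK7 28.6 CPM. CDK9, the P-TEFb kinase, averaged 21.4 CPM beside 23.05 for CCNT1 and 19.2 for CCNT2, while of the 7SK proteins LARP7 averaged 76.3 CPM and HEXIM1 18.3 CPM.

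**Figure D1:**
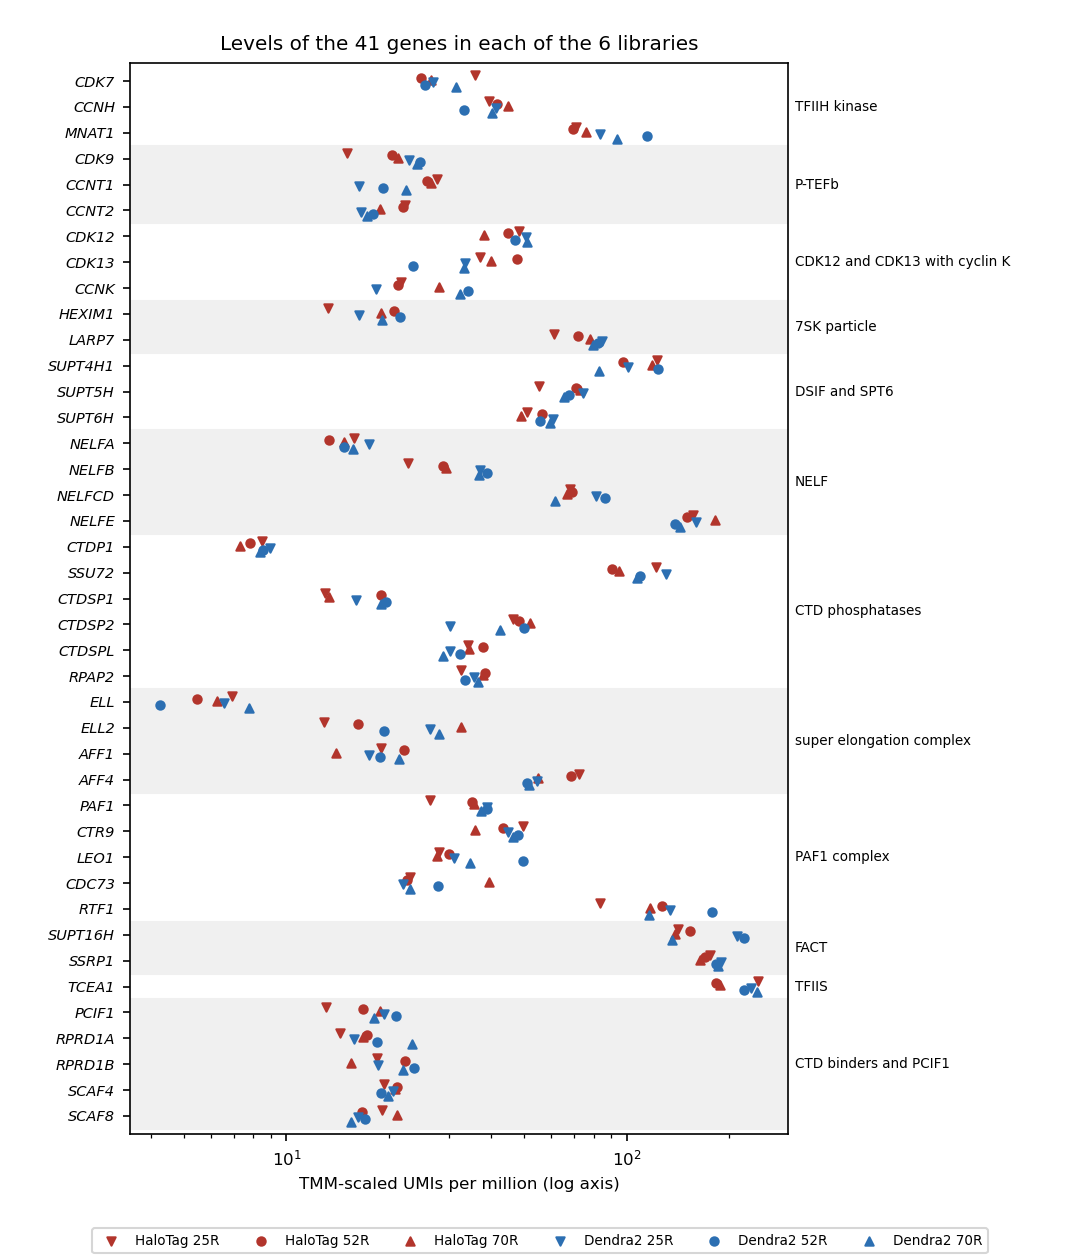
Level of each of the 41 genes (rows, grouped by complex or role) in each of the 6 libraries, in TMM-scaled CPM on a log axis; red symbols are HaloTag and blue symbols Dendra2 libraries, and the symbol gives the CTD length. TCEA1 lies farthest right and ELL farthest left, and for most genes the 6 symbols lie close together compared with the distance between genes.

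The comparison of HaloTag with Dendra2 asks how far the protein fused to RPB1, together with the sequencing it cannot be told apart from, goes with the levels of these factors. No gene of the 41 passed an adjusted p of 0.05 (edgeR quasi-likelihood test, Benjamini-Hochberg over 18069 genes). Over all genes tested, percent called was 0.327%. At an unadjusted p under 0.05, 2 of the 41 were higher and 3 lower in HaloTag libraries, beside 10.4% and 9.2% of all genes. DESeq2 called 0 of the 41 as well, beside 7.24% of the genes to which it gave an adjusted p. The median log2 difference was −0.13 over the 41 and 0.03 over all genes, with 15 of the 41 above 0 and 26 below. In the single pairs at 25R, 52R and 70R, the median of the 41 was −0.08, −0.10 and −0.03.

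The largest difference toward lower levels was that of NELFB, the subunit that ties NELF together. NELFB stood at 22.8, 28.9 and 29.5 CPM in the HaloTag 25R, 52R and 70R libraries, against 37.1, 38.9 and 36.8 CPM in the Dendra2 25R, 52R and 70R libraries, a log2 difference of −0.48 ± 0.14 (SE; adjusted p = 0.154). Every HaloTag library was below every Dendra2 library, and the pairs at 25R, 52R and 70R gave −0.70, −0.42 and −0.32. MNAT1, the subunit that assembles the TFIIH kinase, stood at 70.99, 69.6 and 75.97 CPM in the HaloTag 25R, 52R and 70R libraries, against 83.7, 115 and 93.6 CPM in the Dendra2 25R, 52R and 70R libraries (−0.42 ± 0.14, adjusted p = 0.198). LEO1 of the PAF1 complex stood at 28.1, 30.1 and 27.8 CPM in the HaloTag 25R, 52R and 70R libraries, against 31.01, 49.7 and 34.6 CPM in the Dendra2 25R, 52R and 70R libraries (−0.40 ± 0.16, adjusted p = 0.235). The tags did not overlap for either gene, and Dendra2 52R held the highest value of both.

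Toward higher levels, CCNT1, the cyclin T through which P-TEFb binds its partners, stood at 27.8, 25.9 and 26.7 CPM in the HaloTag 25R, 52R and 70R libraries, against 16.3, 19.2 and 22.5 CPM in the Dendra2 25R, 52R and 70R libraries. Its log2 difference was 0.48 ± 0.15 (SE; adjusted p = 0.178), with 0.76, 0.43 and 0.25 in the pairs at 25R, 52R and 70R. All 3 HaloTag libraries lay above all 3 Dendra2 libraries. CDK13, one of the cyclin K kinases, stood at 36.96, 47.6 and 39.96 CPM in the HaloTag 25R, 52R and 70R libraries, against 33.5, 23.6 and 33.2 CPM in the Dendra2 25R, 52R and 70R libraries (0.47 ± 0.19, adjusted p = 0.251). AFF4, the scaffold of the super elongation complex, stood at 72.5, 68.8 and 54.96 CPM in the HaloTag 25R, 52R and 70R libraries, against 54.4, 50.8 and 51.7 CPM in the Dendra2 25R, 52R and 70R libraries (0.31 ± 0.13, adjusted p = 0.262). Neither gene overlapped between tags, and the distance came mainly from the 52R pair for CDK13 and from the 25R and 52R pairs for AFF4.

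In all, 7 genes were lower in every HaloTag than in every Dendra2 library (MNAT1, CDK9, LARP7, NELFB, PAF1, LEO1 and SSRP1), beside 11.6% of all genes tested, and 5 were higher (CCNT1, CCNT2, CDK13, CTDSPL and AFF4), beside 12.7% (24.3% in either direction). Summed over a library, fewer cells with a transcript and less of it per cell cannot be told apart. By complex, the median was −0.26 over 5 PAF1-complex genes, −0.25 over the 2 FACT genes, −0.20 over the 5 CTD-binding proteins, −0.19 over CDK12, CDK13 and CCNK, −0.18 over the 2 7SK proteins and −0.14 over 4 NELF genes. It was −0.07 over DSIF with SPT6, −0.05 over 6 phosphatases, −0.02 over the super elongation complex, 0.04 over the 3 TFIIH kinase genes and 0.29 over 3 P-TEFb genes. Of these groups, all but FACT and the 7SK proteins held genes of both signs. Single genes ran from −0.35 to 0.48 in P-TEFb, from −0.42 to 0.13 in TFIIH, and from −0.22 to 0.47 among CDK12, CDK13 and CCNK. Beside these differences stand the larger mitochondrial share and the smaller S-called share of HaloTag libraries, in which the median log2 difference was −0.28 over the 43 S genes and −0.15 over the 54 G2/M genes used to call phases. Their part was not tested for each gene. Counted in G1-called cells alone, NELFB was lower in HaloTag with −0.64 ± 0.15 (log2, SE; edgeR adjusted p = 0.0487), the only 1 of the 41 to pass there, beside 7.57% of the genes tested. G1-called cells were set apart less in Dendra2 libraries. The S genes had median log2 differences between S-called and G1-called cells of 0.91 to 1.18 there, against 1.91 to 2.17 in HaloTag. The part of this in the NELFB value was not tested.

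**Figure D2:**
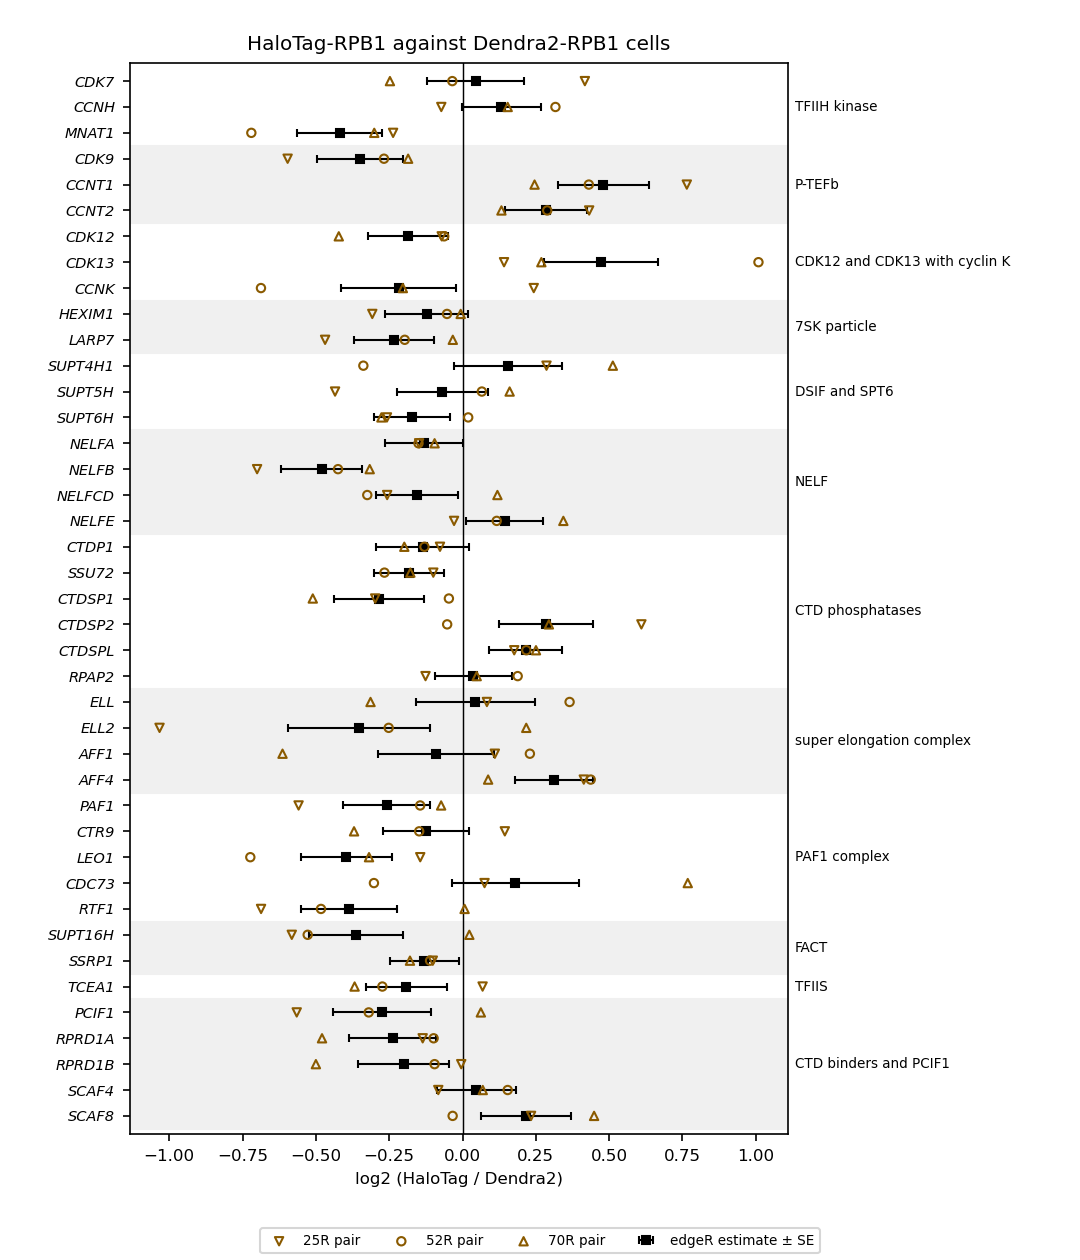
Difference between HaloTag and Dendra2 libraries for each of the 41 genes on the log2 scale; black squares with bars are the edgeR estimate ± SE over 6 libraries, and open symbols are the pairs of equal CTD length. NELFB lies farthest left and CCNT1 farthest right, no estimate passed an adjusted p of 0.05, and for many genes the 3 pairs lie on both sides of 0.

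The other CTD and elongation factors, a list of 50 genes that includes the remaining 7SK, cyclin-dependent kinase, elongin and termination factors, were compared in the same way. Of 49 tested, 0 passed between tags in edgeR, beside 0.327% of all genes. At an unadjusted p under 0.05, 3 were higher and 7 lower in HaloTag libraries, beside 10.4% and 9.2% of all genes. Their median log2 difference was −0.06. In the gene annotation (GENCODE v44), the 41 genes had a median span of 50.4 kb, against 27.8 kb over all genes tested that have a span. Across the 41, span and the log2 difference between tags had a Spearman rho of 0.218. Across 8172 genes of at least 10 CPM rho was 0.223, and across 17985 genes of any level it was 0.0617. These are correlations across genes of the same 6 libraries, and genes are not independent replicates.

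The CTD comparisons ask whether a shorter or longer tail goes with other levels of the enzymes that modify it. In 25R against 52R libraries, 0 of the 41 passed in edgeR (percent called over all genes 0.0443%), and 2 were lower at an unadjusted p under 0.05, beside 6.66% of all genes. HEXIM1, the inhibitor protein of P-TEFb, stood at 13.2 and 16.4 CPM in the 25R libraries (HaloTag and Dendra2), against 20.8 and 21.5 CPM in the 52R libraries, a log2 difference of −0.52 ± 0.17 (SE; adjusted p = 0.318). RTF1 stood at 83.4 and 134 CPM in the 25R libraries (HaloTag and Dendra2), against 127 and 178 CPM in the 52R libraries (−0.50 ± 0.20, adjusted p = 0.379). Both 25R libraries lay below both 52R libraries for HEXIM1, while for RTF1 the Dendra2 25R library lay above HaloTag 52R. CTDSP1, a small CTD phosphatase, stood at 13.03 and 16.02 CPM in the 25R libraries (HaloTag and Dendra2), against 18.95 and 19.6 CPM in the 52R libraries (−0.42 ± 0.19, adjusted p = 0.413).

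Higher values in 25R were found for SSU72, a phosphatase of the CTD that also works in RNA 3′-end formation. SSU72 stood at 122 and 131 CPM in the 25R libraries (HaloTag and Dendra2), against 90.8 and 109 CPM in the 52R libraries (0.34 ± 0.15, adjusted p = 0.397). Both 25R libraries were above both 52R libraries. CDK7 stood at 35.9 and 26.9 CPM in the 25R libraries (HaloTag and Dendra2), against 24.9 and 25.5 CPM in the 52R libraries (0.32 ± 0.20, adjusted p = 0.544), with most of the distance in the HaloTag pair. TCEA1 had a difference of 0.25 ± 0.17 (adjusted p = 0.562) from the values given above. The median over the 41 was −0.06, beside 0.01 over all genes.

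In 70R against 52R libraries, 0 of the 41 passed in edgeR (percent called over all genes 0.0%), and 1 was higher at an unadjusted p under 0.05, beside 2.03% of all genes. The median was −0.01 over the 41 as over all genes, and 0.0039 over the 41 without HaloTag 52R. The gene at an unadjusted p under 0.05 was ELL2, an elongation factor of the super elongation complex. ELL2 stood at 32.6 and 28.04 CPM in the 70R libraries (HaloTag and Dendra2), against 16.3 and 19.4 CPM in the 52R libraries, a difference of 0.79 ± 0.30 (log2, SE; adjusted p = 0.965) with 1.00 and 0.53 in the HaloTag and Dendra2 pairs. Both 70R libraries were above both 52R libraries, and ELL2 was the most variable of the 41, with a 2.53-fold range over the 6 libraries. CDK7 (0.21 ± 0.20, adjusted p = 0.977) and CCNH (0.19 ± 0.17, adjusted p = 0.975) had the next largest positive differences among genes of at least 10 CPM with 1 sign in both tags. SUPT16H stood at 138 and 136 CPM in the 70R libraries (HaloTag and Dendra2), against 154 and 222 CPM in the 52R libraries (−0.42 ± 0.20, adjusted p = 0.965), with the distance mainly in the Dendra2 pair, and RTF1 and LEO1 had differences of −0.35 ± 0.20 and −0.33 ± 0.19 (adjusted p = 0.965 for both).

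In 70R against 25R libraries, 0 of the 41 passed in edgeR (percent called over all genes 0.0%), and 1 was higher at an unadjusted p under 0.05, beside 6.15% of all genes. CCNK, the cyclin of CDK12 and CDK13, stood at 28.1 and 32.4 CPM in the 70R libraries (HaloTag and Dendra2), against 21.7 and 18.3 CPM in the 25R libraries (0.58 ± 0.24, adjusted p = 0.405). Both 70R libraries were above both 25R libraries. ELL2 stood at 32.6 and 28.04 CPM in the 70R libraries (HaloTag and Dendra2), against 12.9 and 26.5 CPM in the 25R libraries (0.70 ± 0.30, adjusted p = 0.42), and its pairs of 1.33 and 0.08 show that the HaloTag pair carried the difference. CDC73, the PAF1-complex subunit also known as parafibromin, stood at 39.3 and 23.1 CPM in the 70R libraries (HaloTag and Dendra2), against 23.1 and 21.97 CPM in the 25R libraries (0.45 ± 0.26, adjusted p = 0.539). SSU72 (−0.33 ± 0.15, adjusted p = 0.436), SUPT16H (−0.32 ± 0.20, adjusted p = 0.55) and AFF4 (−0.23 ± 0.16, adjusted p = 0.6) had the largest negative differences.

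The 3 CTD comparisons share libraries and are not independent of each other. In the HaloTag and the Dendra2 pair, 17, 22 and 22 of the 41 genes differed in opposite directions for 25R against 52R, 70R against 52R and 70R against 25R, and none did so by at least 1 (log2) in both. The share of all genes with opposite directions was not counted, so these counts say nothing particular to the 41. DESeq2 called 0 of the 41 in each of these comparisons, beside 2.93%, 0.394% and 2.69% of the genes to which it gave an adjusted p for 25R against 52R, 70R against 52R and 70R against 25R. The SE of a gene's log2 difference had a median of 0.15 between tags and 0.18 between CTD lengths, so small differences were not detectable with 1 library per genotype, and a missed threshold does not show equal levels. Of the 49 other CTD and elongation factors, 0 passed in any CTD comparison.

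Cells within a library were then compared by cell cycle phase, which pairs cells of the same genotype and sequencing. Each cell was called G1, S or G2/M from lists of S and G2/M genes that hold none of the 41. Between 23.3% and 37.7% of a library's called cells had an S or a G2/M score within 0.05 of 0. How close the S score lay to the G2/M score, which decides between S and G2/M, was not measured. G1-called cells had medians of 9092 to 15852 UMIs over the libraries, S-called cells 12066 to 19532 and G2/M-called cells 13522 to 21699. Doublets were not removed, and their part in the phase differences was not tested.

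In S-called against G1-called cells, 22 of the 41 genes passed an adjusted p of 0.05 (edgeR, library as block, 12 sums, Benjamini-Hochberg over 15263 genes), with 15 higher and 7 lower. Over all genes tested, percent called was 47.7%, 23.1% higher and 24.7% lower, and among genes of at least 10 CPM 32.4% and 24.4%. In G2/M-called against G1-called cells, 27 of the 41 passed, with 25 higher and 2 lower. Over all 15199 genes tested there, percent called was 53.2%, 24.5% higher and 28.7% lower, and among genes of at least 10 CPM 37.2% and 25.3%. The median log2 difference of the 41 was 0.04 in S and 0.17 in G2/M, beside −0.03 over all genes in each.

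The largest differences in S were those of both FACT genes and of CTDSPL. SUPT16H stood at 161, 181 and 165 CPM in S-called cells of HaloTag 25R, 52R and 70R and 233, 254 and 156 CPM in those of Dendra2 25R, 52R and 70R, against 98.4, 105 and 95.6 CPM and 175, 187 and 99.9 CPM in G1-called cells of the same libraries. It rose in S by 0.63 ± 0.05 (log2, SE; adjusted p = 7.17e-06), and S was above G1 in 6 of 6 libraries although the ranges of the phases overlapped. SSRP1 stood at 207, 193 and 184 CPM in S-called cells of HaloTag 25R, 52R and 70R and 202, 197 and 202 CPM in those of Dendra2 25R, 52R and 70R, against 121, 117 and 116 CPM and 168, 159.7 and 147 CPM in G1-called cells of the same libraries (0.53 ± 0.07, adjusted p = 0.000401), and every S value was above every G1 value. In G2/M, SUPT16H stood at 174 CPM in G2/M-called cells (median of 6 libraries, 139 to 222), against 103 CPM in G1-called cells (96.2 to 192) and SSRP1 at 196 CPM in G2/M (188 to 208), against 135 CPM in G1 (117 to 168). SUPT16H rose by 0.54 ± 0.08 (adjusted p = 0.000617) and SSRP1 by 0.51 ± 0.10 (adjusted p = 0.00331), each in 6 of 6 libraries.

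The promoters of the FACT genes and of 3 other genes that differed by phase are shown because partners of 1 complex moved together (FACT, PAF1 and LEO1) or because the gene rose in S (RPRD1B). They run from upstream to just past the annotated start in the RefSeq table (GRCh38.p14), 5′ to 3′ on the gene's strand. Capitals mark matches, on either strand, to E2F-type sites (TTTCCCGC, TTTGGCGC, TTTCGCGC or TTTGCCGC), the CCAAT box (CCAAT) and the cell cycle homology region (TTTGAA), motifs found in many cell cycle genes. SUPT16H (chr14:21383970-21384269, reverse strand) held 1 CCAAT box on the opposite strand, close to the start, and SSRP1 (chr11:57335843-57336142, reverse strand) held no match.
SUPT16H: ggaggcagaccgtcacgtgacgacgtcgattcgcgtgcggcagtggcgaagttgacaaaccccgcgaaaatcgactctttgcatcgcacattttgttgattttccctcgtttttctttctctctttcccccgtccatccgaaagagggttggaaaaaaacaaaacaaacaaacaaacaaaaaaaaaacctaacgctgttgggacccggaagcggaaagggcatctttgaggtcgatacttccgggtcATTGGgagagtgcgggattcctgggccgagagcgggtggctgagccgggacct
SSRP1: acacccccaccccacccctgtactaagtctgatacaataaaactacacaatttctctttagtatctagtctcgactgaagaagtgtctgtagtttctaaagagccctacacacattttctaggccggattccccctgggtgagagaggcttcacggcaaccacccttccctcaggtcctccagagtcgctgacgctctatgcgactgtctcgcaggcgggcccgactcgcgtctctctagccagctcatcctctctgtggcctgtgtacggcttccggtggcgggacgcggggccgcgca
Of PAF1-complex genes, PAF1 (chr19:39391057-39391356, reverse strand) held 3 CCAAT boxes and LEO1 (chr15:51971729-51972028, reverse strand) no match.
PAF1: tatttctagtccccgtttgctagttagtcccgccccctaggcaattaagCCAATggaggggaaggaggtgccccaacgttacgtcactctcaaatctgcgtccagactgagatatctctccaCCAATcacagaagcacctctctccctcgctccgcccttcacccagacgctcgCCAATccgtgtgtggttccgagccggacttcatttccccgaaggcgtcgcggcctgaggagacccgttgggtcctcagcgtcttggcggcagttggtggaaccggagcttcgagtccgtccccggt
LEO1: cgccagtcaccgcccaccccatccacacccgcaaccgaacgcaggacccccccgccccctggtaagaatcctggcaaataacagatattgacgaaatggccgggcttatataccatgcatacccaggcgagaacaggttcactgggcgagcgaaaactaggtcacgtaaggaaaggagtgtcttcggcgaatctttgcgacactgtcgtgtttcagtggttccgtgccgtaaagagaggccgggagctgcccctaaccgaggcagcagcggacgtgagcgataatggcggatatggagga
RPRD1B (chr20:38033496-38033795, forward strand) held 1 E2F-type match on the opposite strand.
RPRD1B: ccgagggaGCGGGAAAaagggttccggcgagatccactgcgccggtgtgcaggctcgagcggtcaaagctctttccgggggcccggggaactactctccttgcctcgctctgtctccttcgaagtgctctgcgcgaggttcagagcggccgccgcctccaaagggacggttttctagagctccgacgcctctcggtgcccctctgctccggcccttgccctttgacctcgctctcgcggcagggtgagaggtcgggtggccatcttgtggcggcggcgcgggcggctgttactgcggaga
Of the 41 genes, 36 had an entry in the promoter table, with 50 promoters in all. E2F-type letters stood in 4% of these 50 and 3.32% of all 35116 promoters, CCAAT in 24% and 34.6%, TTTGAA in 4% and 15.2%, the TATA-type letters TATAAA in 4% and 11.5%, and the GC box GGGCGG in 74% and 45.0% (the last 2 not capitalised, each motif counted separately). A match is a description of the letters, and a missing match says only that they are not in this window.

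**Figure D3:**
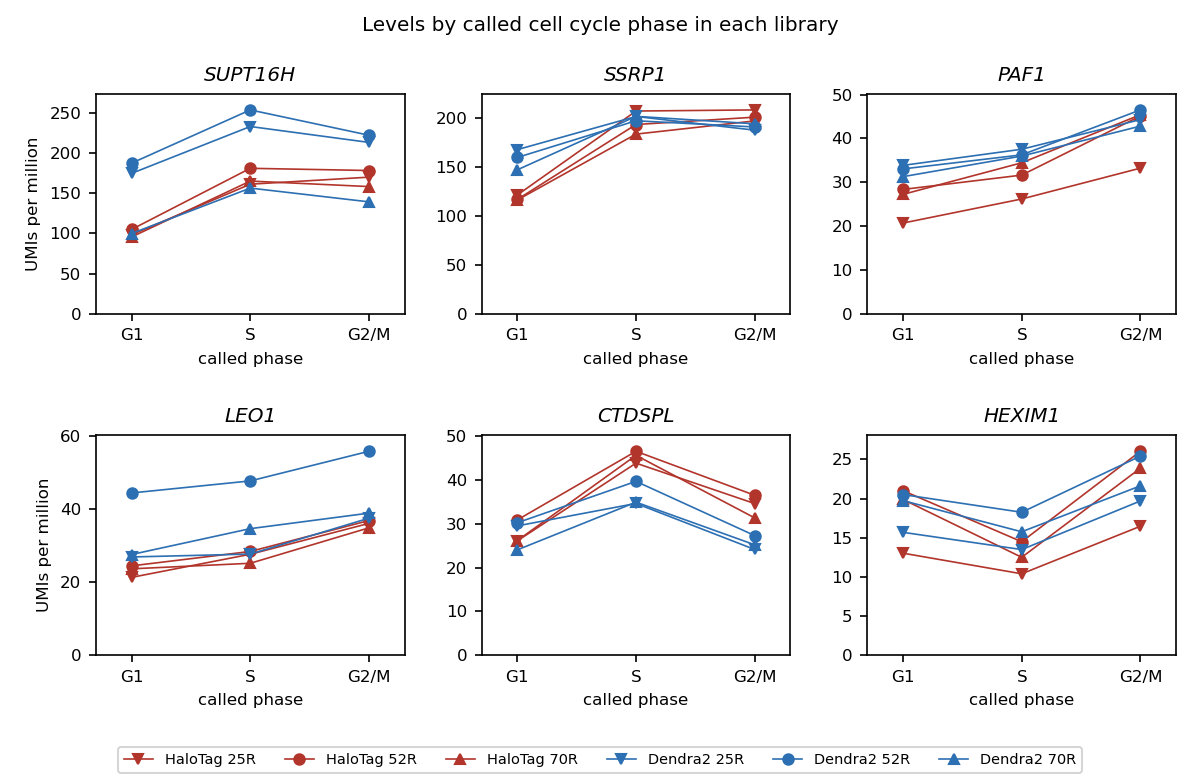
Levels of 6 genes in cells called G1, S and G2/M, in TMM-scaled CPM on linear axes that start at 0; each line is 1 library, red for HaloTag and blue for Dendra2, with the symbol for CTD length. SUPT16H and SSRP1 climb from G1 to S, PAF1 and LEO1 are highest in G2/M, CTDSPL peaks in S, and HEXIM1 dips in S and is highest in G2/M in all 6 libraries.

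All 5 genes of the PAF1 complex, which couples elongation to histone modification, rose in G2/M, and 4 of them in S. PAF1 stood at 33.2, 45.1 and 45.4 CPM in G2/M-called cells of HaloTag 25R, 52R and 70R and 44.3, 46.5 and 42.8 CPM in those of Dendra2 25R, 52R and 70R, against 20.7, 28.4 and 27.4 CPM and 33.9, 33.8 and 31.8 CPM in G1-called cells of the same libraries. It rose in G2/M by 0.56 ± 0.06 (log2, SE; adjusted p = 2.11e-05), the largest difference of the 41 there, and in S by 0.22 ± 0.05 (adjusted p = 0.00285). G2/M exceeded G1 in 6 of 6 libraries, and the lowest G2/M value, that of HaloTag 25R, lay just below the highest G1 value. LEO1 stood at 36.2, 36.9 and 34.9 CPM in G2/M-called cells of HaloTag 25R, 52R and 70R and 37.6, 55.9 and 38.98 CPM in those of Dendra2 25R, 52R and 70R, against 21.3, 24.5 and 23.8 CPM and 26.98, 45.5 and 28.1 CPM in G1-called cells of the same libraries. It rose by 0.52 ± 0.06 in G2/M (adjusted p = 3.43e-05) and by 0.19 ± 0.06 in S (adjusted p = 0.012), and the Dendra2 52R library was the highest of the 6 in G1, S and G2/M.

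CTR9, the scaffold of the PAF1 complex, was the one that did not pass in S. It stood at 53.3 CPM in G2/M-called cells (median of 6 libraries, 43.5 to 56.9), against 41.1 CPM in G1-called cells (34.1 to 45.97) and rose by 0.36 ± 0.04 (adjusted p = 4.64e-05). In S its difference was −0.004 ± 0.05 (adjusted p = 0.955). RTF1 stood at 129.7 CPM in G2/M-called cells (median of 6 libraries, 91.5 to 186), against 115 CPM in G1-called cells (70.4 to 172) and rose by 0.19 ± 0.04 (adjusted p = 0.00347), and by 0.15 ± 0.04 in S (adjusted p = 0.0167). CDC73 stood at 24.4 CPM in G2/M-called cells (median of 6 libraries, 22.1 to 40.7), against 21.01 CPM in G1-called cells (20.04 to 37.4) and rose by 0.15 ± 0.05 (adjusted p = 0.0348), and by 0.18 ± 0.05 in S (adjusted p = 0.00854). The G2/M call of CDC73 was lost without HaloTag 25R, 52R or 70R or Dendra2 70R (highest adjusted p = 0.111) and the S call of RTF1 without HaloTag 25R (adjusted p = 0.0531).

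Both 7SK proteins rose in G2/M, and HEXIM1 fell in S. HEXIM1 stood at 10.4, 14.5 and 12.5 CPM in S-called cells of HaloTag 25R, 52R and 70R and 13.5, 18.2 and 15.8 CPM in those of Dendra2 25R, 52R and 70R, against 13.02, 21.00 and 19.9 CPM and 15.7, 20.5 and 19.7 CPM in G1-called cells of the same libraries. It fell in S by 0.37 ± 0.07 (log2, SE; adjusted p = 0.000994), the largest fall of the 41, and was lower in 6 of 6 libraries. In G2/M HEXIM1 stood at 22.7 CPM in G2/M-called cells (median of 6 libraries, 16.5 to 26.03), against 20.02 CPM in G1-called cells (13.01 to 21.00) and rose by 0.27 ± 0.05 (adjusted p = 0.00145), again in 6 of 6 libraries. LARP7, which binds and stabilises the 7SK RNA, stood at 91.3 CPM in G2/M-called cells (median of 6 libraries, 71.5 to 98.8), against 72.4 CPM in G1-called cells (52.7 to 77.5) and rose by 0.36 ± 0.05 (adjusted p = 7.81e-05). Its difference in S was 0.06 ± 0.05 (adjusted p = 0.335).

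Among the kinases, all 3 TFIIH genes rose in G2/M. CDK7 stood at 30.3 CPM in G2/M-called cells (median of 6 libraries, 27.5 to 39.9), against 26.7 CPM in G1-called cells (24.96 to 38.4) and rose by 0.19 ± 0.06 (adjusted p = 0.0147), a call lost without Dendra2 70R (0.15, adjusted p = 0.0589). In S, CDK7 stood at 23.5 CPM in S (20.7 to 30.2), against 26.6 CPM in G1 (24.4 to 38.4) and fell by 0.23 ± 0.05 (adjusted p = 0.003), lower in 6 of 6 libraries. So CDK7, like HEXIM1, was lowest in S and highest in G2/M. CCNH stood at 44.6 CPM in G2/M-called cells (median of 6 libraries, 36.4 to 48.2), against 39.8 CPM in G1-called cells (33.03 to 43.7) and rose by 0.16 ± 0.05 (adjusted p = 0.0142; 0.13 and 0.0521 without HaloTag 25R). MNAT1 stood at 87.3 CPM in G2/M-called cells (median of 6 libraries, 74.9 to 123), against 73.1 CPM in G1-called cells (64.3 to 110.3) and rose by 0.23 ± 0.04 (adjusted p = 0.000534). In S, MNAT1 rose by 0.11 ± 0.04 (adjusted p = 0.041), a call lost without each HaloTag library and without Dendra2 70R (highest adjusted p = 0.144).

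Of P-TEFb, CCNT1 alone passed. CCNT1 stood at 25.5 CPM in G2/M-called cells (median of 6 libraries, 17.8 to 30.1), against 22.02 CPM in G1-called cells (16.4 to 24.1) and rose by 0.23 ± 0.05 (adjusted p = 0.00306). In S it rose by 0.18 ± 0.07 (adjusted p = 0.035), which was lost when HaloTag 25R or 70R or Dendra2 52R or 70R was left out (adjusted p up to 0.115). CDK9 had differences of −0.02 ± 0.05 in S and 0.07 ± 0.06 in G2/M (adjusted p = 0.793 and 0.353), and CCNT2 of −0.02 ± 0.05 and 0.08 ± 0.06 (adjusted p = 0.771 and 0.269). CDK12 stood at 56.5, 52.7 and 42.5 CPM in G2/M-called cells of HaloTag 25R, 52R and 70R and 55.7, 52.7 and 57.7 CPM in those of Dendra2 25R, 52R and 70R, against 45.7, 42.01 and 35.96 CPM and 45.5, 43.3 and 46.5 CPM in G1-called cells of the same libraries. It rose in G2/M by 0.29 ± 0.04 (adjusted p = 0.000135) with little spread, from 0.24 to 0.33 over the 6 libraries, while its near relative CDK13 had a difference of −0.01 ± 0.06 (adjusted p = 0.873). CCNK stood at 27.9 CPM in G2/M-called cells (median of 6 libraries, 19.6 to 35.9), against 24.1 CPM in G1-called cells (17.6 to 35.9) and rose by 0.16 ± 0.05 (adjusted p = 0.0195), a call lost when either 70R library was left out (adjusted p up to 0.0633).

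The pausing factors rose in part. NELFB stood at 37.96 CPM in G2/M-called cells (median of 6 libraries, 25.8 to 42.98), against 28.00 CPM in G1-called cells (19.05 to 35.4) and rose by 0.43 ± 0.07 in G2/M (adjusted p = 0.000296) and by 0.24 ± 0.06 in S (adjusted p = 0.00339). NELFA stood at 16.8 CPM in G2/M-called cells (median of 6 libraries, 13.6 to 18.8), against 13.6 CPM in G1-called cells (10.8 to 16.7) and rose by 0.26 ± 0.06 (adjusted p = 0.00491), with 0.19 ± 0.07 in S (adjusted p = 0.053). NELFE stood at 163 CPM in G2/M-called cells (median of 6 libraries, 144 to 197), against 144 CPM in G1-called cells (130.5 to 164) and rose by 0.17 ± 0.05 (adjusted p = 0.0141; 0.12 and 0.054 without HaloTag 52R). All 4 NELF genes had positive differences in both phases, and NELFCD was the one that passed in S but not in G2/M. NELFCD stood at 73.1 CPM in S-called cells (median of 6 libraries, 65.4 to 87.9), against 63.05 CPM in G1-called cells (58.7 to 83.6) and rose by 0.15 ± 0.04 in S (adjusted p = 0.00782).

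Of DSIF, SUPT5H rose in G2/M and SUPT4H1 fell in S. SUPT5H, its large subunit, stood at 75.3 CPM in G2/M-called cells (median of 6 libraries, 61.4 to 82.2), against 66.3 CPM in G1-called cells (51.8 to 72.2) and rose by 0.20 ± 0.04 in G2/M (adjusted p = 0.00188), with −0.01 ± 0.04 in S (adjusted p = 0.873). SUPT4H1, its zinc-finger subunit, stood at 105 CPM in S-called cells (median of 6 libraries, 78.5 to 119), against 118 CPM in G1-called cells (85.8 to 132) and fell by 0.15 ± 0.04 in S (adjusted p = 0.00594), lower in 6 of 6 libraries. It also fell in G2/M by 0.14 ± 0.04 (adjusted p = 0.0163), a call lost without HaloTag 52R (adjusted p = 0.0514) or HaloTag 70R (adjusted p = 0.061). In the annotation SUPT4H1 overlaps a protein-coding gene, ENSG00000285897, on its strand, so reads could be divided between them, which was not tested. SUPT6H, the histone chaperone SPT6, stood at 59.96 CPM in G2/M-called cells (median of 6 libraries, 53.9 to 65.3), against 51.4 CPM in G1-called cells (48.2 to 56.9) and rose by 0.19 ± 0.05 in G2/M (adjusted p = 0.00534).

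Of the super elongation complex, 3 of 4 genes fell in S and none rose. AFF4 stood at 61.2, 60.8 and 48.1 CPM in S-called cells of HaloTag 25R, 52R and 70R and 49.6, 46.3 and 46.04 CPM in those of Dendra2 25R, 52R and 70R, against 82.8, 76.6 and 62.7 CPM and 55.6, 52.7 and 56.4 CPM in G1-called cells of the same libraries. It fell by 0.30 ± 0.05 (log2, SE; adjusted p = 0.000221) and was lower in 6 of 6 libraries. ELL stood at 5.38 CPM in S-called cells (median of 6 libraries, 3.17 to 7.39), against 6.99 CPM in G1-called cells (4.52 to 7.88) and fell by 0.31 ± 0.09 (adjusted p = 0.0108), also in 6 of 6. AFF1, the second scaffold, stood at 18.1 CPM in S-called cells (median of 6 libraries, 12.2 to 20.2), against 20.5 CPM in G1-called cells (17.01 to 25.4) and fell by 0.29 ± 0.10 (adjusted p = 0.0374), a call lost without any 1 HaloTag library or Dendra2 70R (highest adjusted p = 0.107). ELL2 had a difference of 0.03 ± 0.05 (adjusted p = 0.623). In G2/M none of the 4 passed, and their differences ran from −0.19 for AFF1 to −0.07 for ELL. AFF4 came close there, with −0.12 ± 0.05 (edgeR adjusted p = 0.0502). It passed with cells thinned to 5000 UMIs, in HaloTag libraries alone, and without Dendra2 25R or Dendra2 52R. AFF1 passed in HaloTag libraries alone and without Dendra2 52R.

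Among the phosphatases, CTDSPL, a small CTD phosphatase that also acts on the retinoblastoma protein, had the largest difference in S. CTDSPL stood at 43.8, 46.5 and 45.6 CPM in S-called cells of HaloTag 25R, 52R and 70R and 34.6, 39.7 and 34.9 CPM in those of Dendra2 25R, 52R and 70R, against 26.1, 30.9 and 26.1 CPM and 29.5, 30.2 and 24.03 CPM in G1-called cells of the same libraries. CTDSPL rose in S by 0.55 ± 0.07 (log2, SE; adjusted p = 7.79e-05), and every S value was above every G1 value. In G2/M its difference was 0.08 ± 0.09 (adjusted p = 0.432). CTDSP2 stood at 44.7 CPM in G2/M-called cells (median of 6 libraries, 27.7 to 50.5), against 50.1 CPM in G1-called cells (31.1 to 58.8) and fell in G2/M by 0.14 ± 0.04 (adjusted p = 0.0181), a call lost when HaloTag 52R or 70R or Dendra2 25R was left out (adjusted p up to 0.0729). SSU72 stood at 114 CPM in G2/M-called cells (median of 6 libraries, 96.9 to 134), against 105 CPM in G1-called cells (86.8 to 132) and rose by 0.11 ± 0.04 (adjusted p = 0.0356), which passed in only 1 of the 6 fits with a library left out, that without Dendra2 25R. RPAP2, which acts on the CTD early in transcription, stood at 33.4 CPM in S-called cells (median of 6 libraries, 28.2 to 34.9), against 35.7 CPM in G1-called cells (33.2 to 42.1) and fell in S by 0.17 ± 0.06 (adjusted p = 0.0341), a call lost without any 1 HaloTag library (highest adjusted p = 0.122). CTDP1 and CTDSP1 passed in neither phase, with differences from −0.03 to 0.15.

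TCEA1 stood at 235 CPM in S-called cells (median of 6 libraries, 184 to 262), against 212 CPM in G1-called cells (163 to 217) and rose by 0.18 ± 0.04 in S (adjusted p = 0.00131) and by 0.18 ± 0.04 in G2/M (adjusted p = 0.00448). Of the CTD-binding proteins, RPRD1B, which recruits a CTD phosphatase and is also known to promote cyclin D1 expression, stood at 23.4 CPM in S-called cells (median of 6 libraries, 17.9 to 27.6), against 17.8 CPM in G1-called cells (13.6 to 22.3) and rose in S by 0.39 ± 0.05 (adjusted p = 0.000136). In G2/M it had a difference of 0.05 ± 0.06 (adjusted p = 0.482), and its relative RPRD1A passed in neither phase. SCAF4, which restrains early termination, stood at 22.4 CPM in G2/M-called cells (median of 6 libraries, 18.6 to 23.9), against 17.4 CPM in G1-called cells (16.2 to 19.8) and rose by 0.32 ± 0.08 in G2/M (adjusted p = 0.00472) and by 0.22 ± 0.06 in S (adjusted p = 0.00946). PCIF1, the cap methyltransferase that binds the phosphorylated CTD, stood at 19.6 CPM in G2/M-called cells (median of 6 libraries, 15.2 to 22.3), against 15.7 CPM in G1-called cells (11.7 to 20.9) and rose by 0.30 ± 0.07 in G2/M (adjusted p = 0.00424). In S it rose by 0.19 ± 0.06 (adjusted p = 0.0253), a call lost when HaloTag 52R or 70R or Dendra2 70R was left out (adjusted p up to 0.0826). SCAF8 stood at 17.5 CPM in G2/M-called cells (median of 6 libraries, 15.9 to 21.6), against 15.4 CPM in G1-called cells (12.6 to 21.1) and rose by 0.20 ± 0.06 in G2/M (adjusted p = 0.0129). SCAF8 overlaps TIAM2 on its strand in the annotation.

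**Figure D4:**
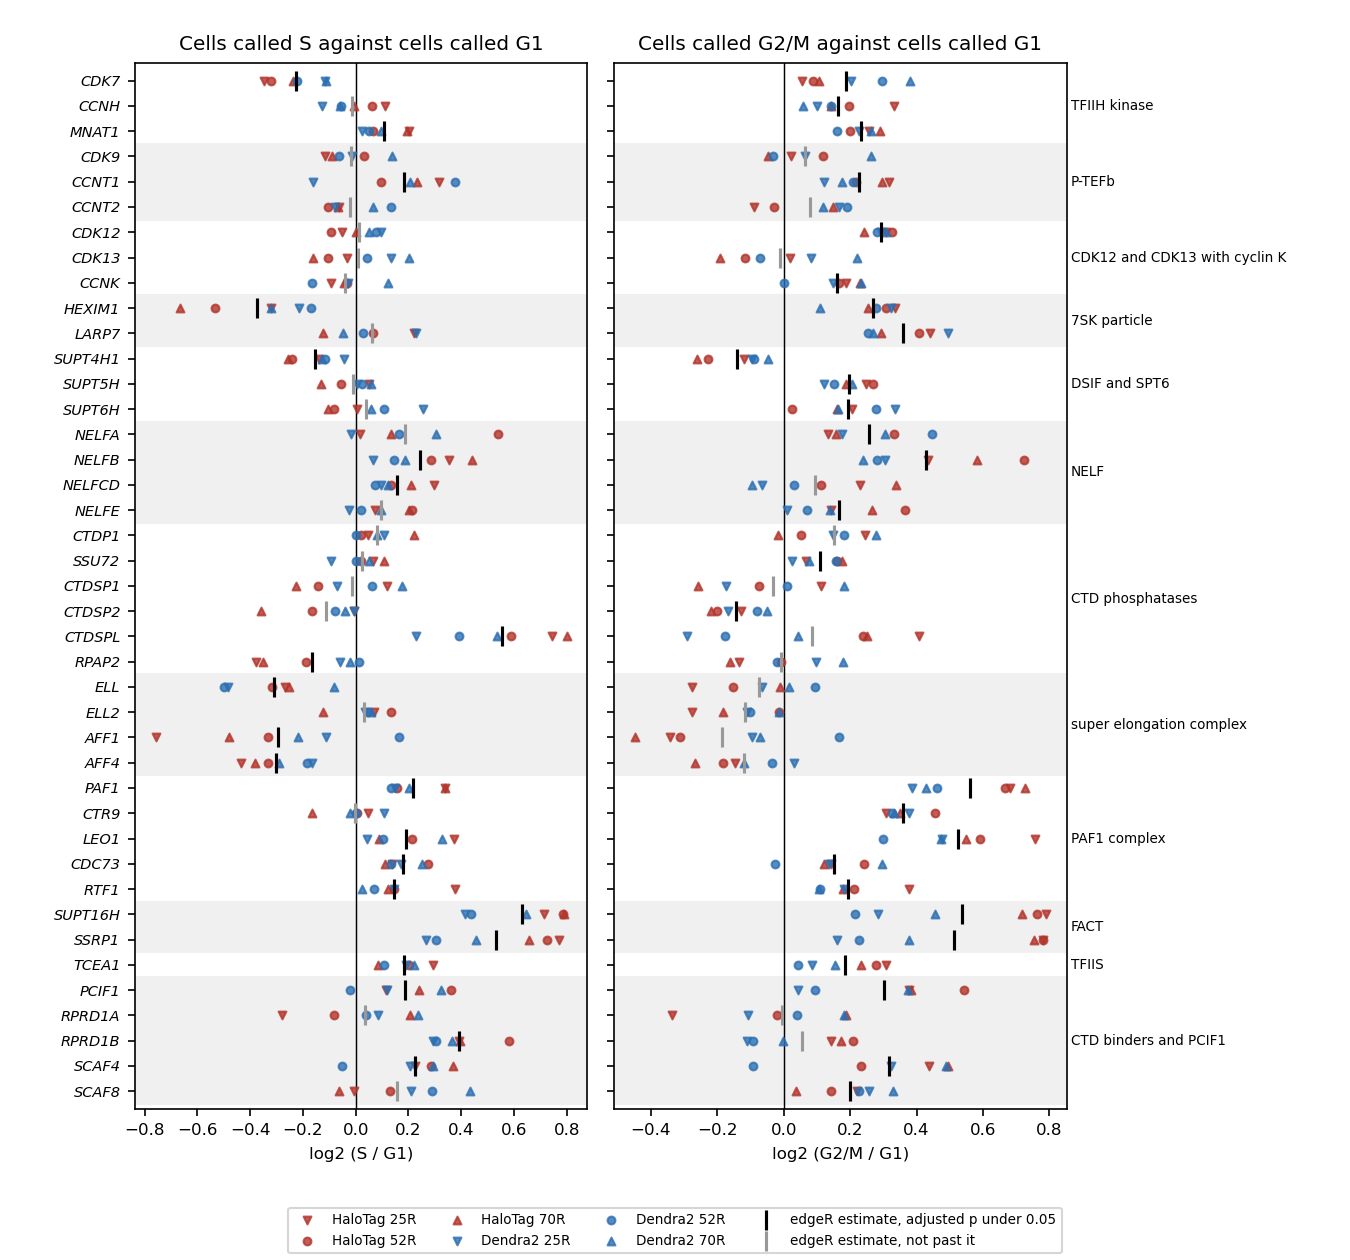
Difference of cells called S (left) and G2/M (right) from cells called G1 of the same library, on the log2 scale, for each of the 41 genes; symbols are the 6 libraries, black bars mark edgeR estimates with an adjusted p under 0.05 and grey bars the others. In S, SUPT16H, CTDSPL and SSRP1 lie farthest right and HEXIM1 farthest left; in G2/M most estimates lie right of 0, with PAF1 farthest.

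Across libraries the G1 values of a gene spread widely, so for the other genes called the ranges of the phases overlapped and the calls rest on the differences within libraries. A library against the rest in sign was found for CCNT1, PCIF1, SCAF4, AFF1 and RPAP2 in S and for CDC73 and SCAF4 in G2/M. Phases differ in depth, and with every cell thinned to 5000 UMIs the S calls of AFF1, CDC73, ELL, LEO1, MNAT1, PCIF1 and SCAF4 were lost, as were the G2/M calls of CCNH, CCNK, CDC73, CDK7, CTDSP2, NELFA, PCIF1, SCAF8, SSU72 and SUPT6H. Thinned cells hold fewer UMIs, so that fit is also less precise. In G2/M it also called AFF4 and CCNT2, which had not passed with all UMIs. With library totals in place of TMM, AFF1 and RPAP2 in S and SUPT4H1 and CTDSP2 in G2/M were no longer called lower. With DESeq2, which called 35.8% of all genes in S and 43.9% in G2/M, CCNT1, MNAT1, PCIF1, RPAP2 and RTF1 in S and CCNK, CDC73, CTDSP2, SCAF8 and SSU72 in G2/M were not called. Calls that held with thinned cells, library totals, DESeq2 and each library left out numbered 8 higher in S (CTDSPL, NELFB, NELFCD, PAF1, RPRD1B, SSRP1, SUPT16H and TCEA1), 4 lower in S (AFF4, CDK7, HEXIM1 and SUPT4H1) and 15 higher in G2/M. The share of all genes whose calls held in every one of these fits was not counted. With thinned cells alone, 42% of all genes were called in S and 47.5% in G2/M.

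Several of these genes have a close relative in the set, and the 2 relatives were compared within each library. CTDSPL exceeded CTDSP1 by 0.56 and CTDSP2 by 0.66 in its S against G1 log2 difference, RPRD1B exceeded RPRD1A by 0.35, ELL minus ELL2 was −0.35, and in G2/M CDK12 exceeded CDK13 by 0.30. Each of these held in 6 of 6 libraries, with an exact two-sided sign-flip p of 0.03125, the smallest that 6 libraries allow. Over the 18 tests made on 9 pairs, none passed after adjustment (adjusted p = 0.1125 for each). The pairs AFF1 and AFF4, SCAF4 and SCAF8, CTDSP1 and CTDSP2, and CCNT1 and CCNT2 had adjusted p of 0.188 or more in both phases.

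The phase differences were also fitted within each tag, a step added after the values were seen. In S, 23 of the 41 passed in the HaloTag libraries alone (16 higher, 7 lower; 49.4% of all genes) and 9 in the Dendra2 libraries alone (6 higher, 3 lower; 28.0%). In G2/M, 26 passed in HaloTag (22 higher, 4 lower; 54.1% of all genes) and 18 in Dendra2 (18 higher, 0 lower; 37.8%). SUPT16H, SSRP1, CTDSPL, RPRD1B and TCEA1 rose in S, and AFF4 and HEXIM1 fell, in both. In G2/M, 14 genes rose in both: CDK12, CTR9, HEXIM1, LARP7, LEO1, MNAT1, NELFB, PAF1, RTF1, SCAF4, SSRP1, SUPT16H, SUPT5H and TCEA1. The share of all genes that passed in both tags was not counted.

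The size of the phase difference was then compared between tags by an interaction term (edgeR). In S, 5 of the 41 differed, beside 11.5% of all genes, and in G2/M 8, beside 13.6%. For SSRP1 the difference between S and G1 was larger in HaloTag libraries by 0.38 ± 0.06 (log2, SE; adjusted p = 0.000133) and that between G2/M and G1 by 0.52 ± 0.06 (adjusted p = 4e-06). The values above show where the distance lay, since SSRP1 stood at 121, 117 and 116 CPM in G1-called cells of HaloTag 25R, 52R and 70R, against 168, 159.7 and 147 CPM in those of the Dendra2 libraries, while S-called cells of both tags lay between 184 and 207 CPM. For SUPT16H the same terms were 0.27 ± 0.06 in S (adjusted p = 0.00619) and 0.44 ± 0.06 in G2/M (adjusted p = 4.6e-05). The phase lists themselves were more separated in HaloTag cells: the median log2 difference of the 43 S genes in S was 1.91 to 2.17 in HaloTag and 0.91 to 1.18 in Dendra2 libraries, and that of the 54 G2/M genes in G2/M was 2.84 to 3.87 in HaloTag and 1.69 to 2.12 in Dendra2 libraries. Their part in the gene differences was not tested.

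The 49 other CTD and elongation factors that were tested were compared by phase as well. In S, 21 rose and 6 fell (42.9% and 12.2%, median log2 0.11), beside 23.1% higher and 24.7% lower over all genes tested. In G2/M, 32 rose and 5 fell (65.3% and 10.2%, median 0.23), beside 24.5% and 28.7%. Among genes of at least 10 CPM, 32.4% were higher and 24.4% lower in S, and 37.2% and 25.3% in G2/M. CTDSPL2, a further phosphatase of the family, rose by 0.72 ± 0.06 in S (log2, SE; adjusted p = 6e-06) and by 0.65 ± 0.07 in G2/M (adjusted p = 3.7e-05). MEPCE, the capping enzyme of 7SK RNA, rose by 0.30 ± 0.08 in S (adjusted p = 0.00859) and by 0.77 ± 0.10 in G2/M (adjusted p = 0.000211). EAF2, a partner of ELL, rose by 0.66 ± 0.20 in S (adjusted p = 0.022). In G2/M PCF11, a termination factor, rose by 0.63 ± 0.05 (adjusted p = 5e-06). HEXIM2, the relative of HEXIM1, fell by 0.41 ± 0.11 in S (adjusted p = 0.00774) and by 0.47 ± 0.10 in G2/M (adjusted p = 0.00234), so in G2/M HEXIM2 fell where HEXIM1 rose. MLLT3, a reader of acetylated histones in the super elongation complex, fell by 0.42 ± 0.11 in S (adjusted p = 0.00705) and by 0.58 ± 0.09 in G2/M (adjusted p = 0.00032).

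The authors' kinetic tables give each gene a mean in UMIs per cell and a parameter K that was used here as the burst frequency. K follows the spread of counts between cells, in which depth and called phase also differ, and their part in K was not tested. Burst size was taken as the mean divided by K. Of the 41 genes, 23 reached a mean of 0.5 UMIs per cell over the libraries and were fitted among 4355 genes, while the other 18 lay below it. K and size differed between genes of like mean. SUPT16H and SSRP1, with means of 2.77 and 2.94 UMIs per cell over the 6 libraries, had median K of 2.23 and 2.48, at the 19.4th and 26.0th percentile of all genes fitted, and sizes of 1.14 and 1.21, at the 82.5th and 83.7th percentile. NELFE, with a mean of 2.52 UMIs per cell, had a median K of 4.10 and a size of 0.591, and TCEA1, with a mean of 3.64, a K of 3.83 and a size of 0.898. CTDSP2 had the highest K of the 23, 4.93 at the 95.8th percentile, and the lowest size, 0.144 at the 2.94th percentile.

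**Figure D5:**
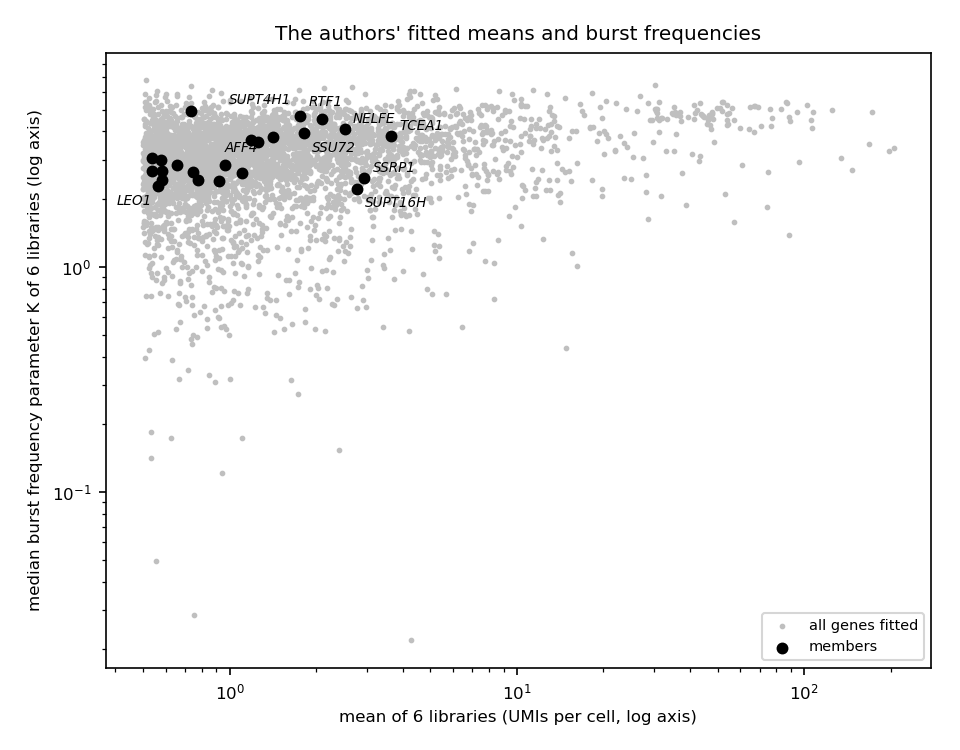
Median K of the 6 libraries against the mean UMI count per cell, both on log axes, for the 4355 genes fitted (grey) and the 23 of the set (black). SUPT16H and SSRP1 lie low for their mean, while RTF1 and SUPT4H1 lie high.

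Between tags, 0 of the 23 passed for burst frequency (limma on log10 values centred on the median of all genes in each library; percent called over all genes 1.24%), and 2 were lower at an unadjusted p under 0.05, beside 11.1% of all genes. LEO1 had K of 1.93, 2.303 and 2.28 in the 25R, 52R and 70R libraries with HaloTag, against 1.93, 4.76 and 3.08 in those with Dendra2, a log10 difference of −0.148 ± 0.050 (SE; adjusted p = 0.209). The tags overlapped, since Dendra2 25R was as low as HaloTag 25R. SSRP1 had K of 2.32, 2.27 and 2.02 in the 25R, 52R and 70R libraries with HaloTag, against 2.64, 2.69 and 2.78 in those with Dendra2 (−0.089 ± 0.037, adjusted p = 0.279), and all HaloTag values were below all Dendra2 values. SUPT16H, the other gene at an unadjusted p under 0.05, had −0.088 ± 0.033 (adjusted p = 0.234). Toward higher frequency, CTDSP2 had K of 6.44, 4.496 and 5.41 in the 25R, 52R and 70R libraries with HaloTag, against 3.66, 4.22 and 5.37 in those with Dendra2 (0.092 ± 0.046, adjusted p = 0.34) and SUPT4H1 of 5.12, 4.39 and 5.79 in the 25R, 52R and 70R libraries with HaloTag, against 3.76, 4.93 and 4.28 in those with Dendra2 (0.072 ± 0.041, adjusted p = 0.399). When the fit was restricted to the 1217 genes of 2 or more UMIs per cell, 2 of the 5 that belong to the set passed, SSRP1 with −0.107 (adjusted p = 0.0378) and SUPT16H, beside 21.1% of those genes.

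For burst size, 0 of the 23 passed (percent called over all genes 3.24%), and 1 was lower at an unadjusted p under 0.05, beside 11.1% of all genes. MNAT1 had sizes of 0.297, 0.274 and 0.261 in the 25R, 52R and 70R libraries with HaloTag, against 0.438, 0.481 and 0.501 in those with Dendra2, a log10 difference of −0.124 ± 0.053 after centring (SE; adjusted p = 0.218). All HaloTag values were below all Dendra2 values. RTF1 had sizes of 0.364, 0.417 and 0.305 in the 25R, 52R and 70R libraries with HaloTag, against 0.592, 0.699 and 0.505 in those with Dendra2. Its difference after centring was −0.110 ± 0.055 (limma adjusted p = 0.292). These sizes did not overlap, but the centred log10 values did. Centred, RTF1 had −0.042, 0.063 and 0.013 with HaloTag at 25R, 52R and 70R, and 0.131, 0.224 and 0.007 with Dendra2. The median size of all genes fitted was 0.401, 0.361 and 0.296 in the HaloTag libraries and 0.438, 0.418 and 0.497 in the Dendra2 libraries. Toward larger bursts, CTDSPL had sizes of 0.238, 0.265 and 0.141 in the 25R, 52R and 70R libraries with HaloTag, against 0.215, 0.201 and 0.161 in those with Dendra2 (0.144 ± 0.071, adjusted p = 0.276). CDK13 had sizes of 0.176, 0.257 and 0.154 in the 25R, 52R and 70R libraries with HaloTag, against 0.199, 0.154 and 0.196 in those with Dendra2 (0.130 ± 0.083, adjusted p = 0.412). The tags overlapped for both genes before and after centring. Before centring, CDK13 had the smaller size in HaloTag at 25R and 70R. After centring, its log10 size was −0.358 in HaloTag and −0.343 in Dendra2 at 25R, and −0.285 in HaloTag and −0.405 in Dendra2 at 70R. Without centring, the differences were 0.036 for CTDSPL and 0.021 for CDK13, and with centring leaving out HaloTag 52R gave 0.053 for CDK13 and leaving out Dendra2 52R gave 0.052. Without centring, the median difference in size was −0.108 over the 23 and −0.123 over all genes, beside the smaller UMI count per cell of HaloTag libraries, whose part in it was not tested.

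Pseudogenes named after some of the 41 are annotated in the genome, and their sequence was not compared with that of the genes. The annotation names 4 pseudogenes each for LARP7, ELL2 and TCEA1, 2 each for SSU72 and SUPT4H1, and 1 each for CDK7, CCNH, CCNT2, RPAP2, AFF4 and SUPT16H. Whether they took a share of the reads was not tested, and values of these genes carry that uncertainty.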

How the data were processed

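Libraries were made with droplet 3′ chemistry and counted by the authors as UMI counts per gene and cell on GRCh38, per the submitters' processing notes, by Cell Ranger 6.1.2, as given in the deposited file headers; the 2 sequencing runs of each HaloTag library were merged into 1 matrix before deposit. Barcodes under 500 genes or over 20% mitochondrial UMIs were dropped, no doublet caller was run, and counts were summed per library. Library totals were 52553686 to 58442223 UMIs, and errors are taken from the spread between libraries. Neither the library sizes nor the tests included the HaloTag and Dendra2 rows.

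Sums were scaled by TMM and fitted with edgeR 4.0.16 (robust quasi-likelihood, tag plus CTD length, 2 residual degrees of freedom, prior count of 2 for log CPM), after its filter on low counts with tag as the group. Phases were called from scores of the S and G2/M lists on cells thinned to 5000 UMIs, with 50 control genes per list gene from 25 expression bins; sums of unthinned counts per phase were fitted with the library as block. The p-values of these fits were adjusted over all genes tested by the Benjamini-Hochberg method, with a threshold of 0.05; those of library measures and of related genes were adjusted over the tests made, as given beside them. The deposited kinetic tables hold the authors' fitted mean, K and squared coefficient of variation per gene. The squared coefficient equalled 1/mean + 1/K within 1% in 99.98% or more of the genes checked, those averaging 0.5 or more UMIs a cell, and the reading of K as a burst frequency rests on that relation; log10 values were fitted with limma 3.58.1. Other tools were DESeq2 1.42.0, R 4.3.3, Python 3.11.15, scipy 1.17.1, pandas 2.3.3, matplotlib 3.10.9 and numpy 2.4.6. Gene positions are those of GENCODE v44 on GRCh38, and promoters those of RefSeq on GRCh38.p14.

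The 41 genes, the list of other factors and the tests were chosen with earlier results of these data known. Values are given for genes past the threshold, for the 3 genes with the largest difference in each direction among those of at least 10 CPM with 1 sign in every pair, for the 5 highest and 3 lowest in level, and for the 2 largest in each direction for bursting. Alternatives were DESeq2, library totals, no filter on low counts, thinned cells, G1-called cells alone, and leaving out each library; the fits within a tag and the interaction were added after the values were seen. The scripts were tested on simulated data.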

Additional observations from a re-analysis of the deposited data

Results flagged for a closer look

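In 13 cases the phase difference of a gene differed between HaloTag and Dendra2 libraries by an interaction term (edgeR, adjusted p under 0.05; HaloTag minus Dendra2, log2). In S against G1 these were SSRP1 (0.3783), CTDSPL (0.3272) and SUPT16H (0.2685), with the larger difference in HaloTag cells, and AFF1 (−0.4613) and RPAP2 (−0.2823), which were lower in S in HaloTag cells than the Dendra2 values would give. In G2/M against G1 they were SSRP1 (0.5172), CTDSPL (0.4437), SUPT16H (0.4428), NELFB (0.3106), NELFCD (0.2676), PAF1 (0.2673) and TCEA1 (0.179), and AFF1 with −0.3642. AFF1 stood at 14.1, 20.2 and 12.2 CPM in S-called cells of HaloTag 25R, 52R and 70R and 16.9, 19.4 and 19.5 CPM in those of Dendra2 25R, 52R and 70R, against 24.00, 25.4 and 17.01 CPM and 18.2, 17.2 and 22.8 CPM in G1-called cells of the same libraries, so that S lay below G1 in all 3 HaloTag libraries, while Dendra2 52R had the opposite sign.

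In 4 cases a single library lay far from the other 5 in the phase difference of a gene. RPRD1B in S was 0.581 in HaloTag 52R, above the rest, and RTF1 in S was 0.3754 in HaloTag 25R, above the rest. In G2/M, HEXIM1 was 0.1083 in Dendra2 70R and CCNK 0.0002216 in Dendra2 52R, both below the rest. Chance flags about 1 in 20 groups, and 82 groups were looked at (41 genes in 2 phases).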

How the results depend on the processing

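No paired analysis was possible because the replicate numbers of the HaloTag samples are sequencing runs of 1 library and the groups share fewer than 2 replicate numbers; this holds for pairing by replicate number, while phases were compared within libraries. Under the alternatives run, no called gene changed direction. The median of the 41, which has no test, changed sign for 25R against 52R without HaloTag 25R (0.0088, against −0.058 with all libraries) and for 70R against 52R without HaloTag 52R (0.0039, against −0.015). With library totals in place of TMM the median log2 difference of the 41 genes was −0.046 between tags, −0.11 for 25R against 52R and 0.091 for 70R against 25R, and 0 genes fell in G2/M; the median over all genes between tags was then 0.11. In G1-called cells alone it was −0.079 between tags (1 gene called), −0.11 for 25R against 52R and −0.065 for 70R against 52R. Leaving out 1 library gave medians from −0.080 to 0.0088 for 25R against 52R and from 0.0075 to 0.052 for 70R against 25R, and from 0 to 4 genes lower in G2/M. The genes lower in G2/M numbered 1 with DESeq2, 4 in HaloTag and 0 in Dendra2 libraries alone, and in S 6 were higher and 3 lower in Dendra2 libraries alone. Burst frequency was called for 2 genes at means of 2 or more UMIs per cell. Over all genes, DESeq2 called 1130 between tags (edgeR 59), 489 for 25R against 52R (edgeR 8), 67 for 70R against 52R and 448 for 70R against 25R (edgeR 0 for each), and with no filter edgeR called 408, 106, 6 and 72. Leaving out 1 library gave 0 to 88, 0 to 464, 0 to 2 and 0 to 493. With cells thinned to 5000 UMIs, 15 of the 22 genes remained called in S and 17 of the 27 in G2/M. The cause of these changes was not tested.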
